A study of Bos taurus with 30 samples.

Results

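The integrin subunits described here are 10 genes, taken by their symbols from the 27607 genes in the count tables of bovine endometrial cells grown in a microfluidic device. They are the alpha subunits ITGA2, ITGA3, ITGA5, ITGA6 and ITGAV, and the beta subunits ITGB1, ITGB4, ITGB5, ITGB6 and ITGB8. All 10 symbols were found, each with 1 gene identifier. The cells came from uteri of nonpregnant cows early in the luteal phase. Epithelial cells lined the upper chamber, and stromal cells grew under a porous membrane in the lower chamber. In the glucose experiment, medium with 5 mM or 50 mM glucose flowed through the device for 72 hours. In the insulin experiment, the medium held 5 mM glucose and either the insulin vehicle (acetic acid in phosphate-buffered saline), 1 ng/mL insulin or 10 ng/mL insulin, also for 72 hours. With 2 cell types and 5 conditions there were 10 groups of 3 biological replicates, 30 libraries in all. Both populations were enriched cell fractions rather than pure cells, and each cell type was taken from the device separately with trypsin. The comparisons address whether the cell types differ in these genes, and whether glucose or insulin alters them.

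Integrins are receptors of an alpha and a beta chain that span the cell membrane and tie the matrix outside the cell to the cytoskeleton inside. The alpha chain largely sets the ligand: ITGA2 with ITGB1 binds collagen, ITGA3 with ITGB1 and ITGA6 with ITGB4 bind laminins, ITGA5 with ITGB1 binds fibronectin, and ITGAV pairs with several beta chains to bind matrix proteins that carry an RGD motif. In the endometrium, integrins of the epithelium hold the cells to their basement membrane and are studied for their part in the attachment of the embryo. ITGB6 and ITGB8, paired with ITGAV, are also known for releasing active TGF-beta from its latent complex.

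Before the values, the libraries were checked against marker genes of both cell types. Depth was 13493503 to 16647701 counted reads per library in the glucose experiment and 8826470 to 13214728 in the insulin experiment. Levels are given as CPM, the reads of a gene scaled to the same library total. A count of 0 allows up to 3 counts, or 0.180 to 0.222 CPM in the glucose libraries and 0.227 to 0.340 CPM in the insulin libraries, which covers counting error only. The 30 epithelial markers, among them keratins, EPCAM and CDH1, summed to 10301 to 19023 CPM in the epithelial libraries and to 46.4 to 7151 CPM in the stromal libraries, where 0 to 16 of the 30 were at 0. Of these, CDH3 went the other way, with a median of 2.95 CPM in epithelial and 4.04 CPM in stromal libraries. The 30 stromal marker identifiers, among them those of VIM, DCN and LUM, summed to 16111 to 40605 CPM in stromal and 1500.5 to 4822 CPM in epithelial libraries. They stand for 29 of the 30 symbols listed, since NNMT was not matched and ZEB2 had more than 1 identifier. MEOX2 of that list was at most 0.217 CPM in stromal and 0.630 CPM in epithelial libraries. The labels thus matched the markers, but 6 of the 15 stromal libraries carried epithelial markers. In these 6, the median marker stood at 3.63% to 69.8% of its mean level in the epithelial cells of the same condition, and in the other 9 at 0% to 0.407%. The 6 were all 3 replicates at 50 mM glucose (15.3%, 5.62% and 69.8% in replicates 1, 2 and 3), replicate 1 at 5 mM (7.03%), replicate 2 of the insulin vehicle (3.75%) and replicate 1 at 10 ng/mL insulin (3.63%). The median stromal marker stood at 2.05% to 17.3% of its stromal level in the epithelial libraries. Among the epithelial libraries, replicate 2 at 5 mM glucose stood apart, with the marker sum of 19023 CPM where the other 14 held at most 11926. In such bulk libraries, fewer cells of a type and less RNA per cell cannot be told apart.

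ITGB4, ITGA6, ITGA3 and ITGA2, which are laminin or collagen receptor chains, had higher levels in epithelial cells. ITGB4 (ENSBTAG00000018169), the beta chain of the hemidesmosome, ranged from 1284 to 4151 CPM over the 15 epithelial libraries, with a median of 1548, and from 1.93 to 785 CPM over the 15 stromal libraries, with a median of 5.74. Its lowest epithelial library lay above its highest stromal library, so the cell types did not overlap. ITGA6 (ENSBTAG00000017266), the alpha chain that pairs with ITGB4 in the hemidesmosome, ranged from 702 to 2344 CPM in epithelial cells (median 1274) and from 5.85 to 767 CPM in stromal cells (median 35.6). Here the cell types overlapped by a single library on each side, stromal replicate 3 at 50 mM glucose (767 CPM) and epithelial replicate 2 at 5 mM (702 CPM). ITGA3 (ENSBTAG00000019498), a receptor chain for laminins of the epithelial basement membrane, had 1219 to 2676 CPM in epithelial cells (median 1633) and 30.3 to 1058 CPM in stromal cells (median 88.0), without overlap. ITGA2 (ENSBTAG00000019289), the collagen receptor chain, had 279 to 845 CPM in epithelial cells (median 575) and 3.52 to 292 CPM in stromal cells (median 17.8). Its overlap again rested on stromal replicate 3 at 50 mM (292 CPM) and epithelial replicate 2 at 5 mM (279 CPM).

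Both beta subunits known for TGF-beta activation were also higher in epithelial cells, but at different levels of their own in stromal cells. ITGB6 (ENSBTAG00000009080), which pairs with ITGAV and is known mainly from epithelia, had 358 to 753 CPM in epithelial cells (median 499) and 0 to 316 CPM in stromal cells (median 0.488). It was within the limit that a count of 0 allows in stromal replicate 2 at 5 mM glucose (0.126 CPM), replicate 3 of the insulin vehicle (0.217 CPM), the 3 libraries at 1 ng/mL insulin (0.0926, 0.0848 and 0 CPM) and replicate 2 at 10 ng/mL (0 CPM). ITGB8 (ENSBTAG00000003709) had 39.5 to 104 CPM in epithelial cells (median 81.1) and 4.52 to 35.3 CPM in stromal cells (median 7.32). Neither gene overlapped between the cell types, and ITGB8 was above 0 in every stromal library, with 4.52 CPM as its lowest value.

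The fibronectin receptor subunits were higher in stromal cells. ITGA5 (ENSBTAG00000013745), the fibronectin receptor alpha chain, had 626 to 2567 CPM in stromal cells (median 796) and 61.7 to 364 CPM in epithelial cells (median 113). ITGB1 (ENSBTAG00000015910), the beta chain shared by many alpha chains, had 1869 to 2715 CPM in stromal cells (median 2355) and 842 to 1402 CPM in epithelial cells (median 1172). Neither gene overlapped between the cell types, and the gap was narrow in ITGB1. ITGAV (ENSBTAG00000019929), the alpha chain that ITGB5, ITGB6 and ITGB8 share, had 444 to 1245 CPM in stromal cells (median 550) and 223 to 555 CPM in epithelial cells (median 388), so its ranges overlapped. ITGB5 (ENSBTAG00000013755), which with ITGAV binds vitronectin, had 247 to 777 CPM in epithelial cells (median 331) and 153 to 416 CPM in stromal cells (median 332), with almost the same median.

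**Figure D1:**
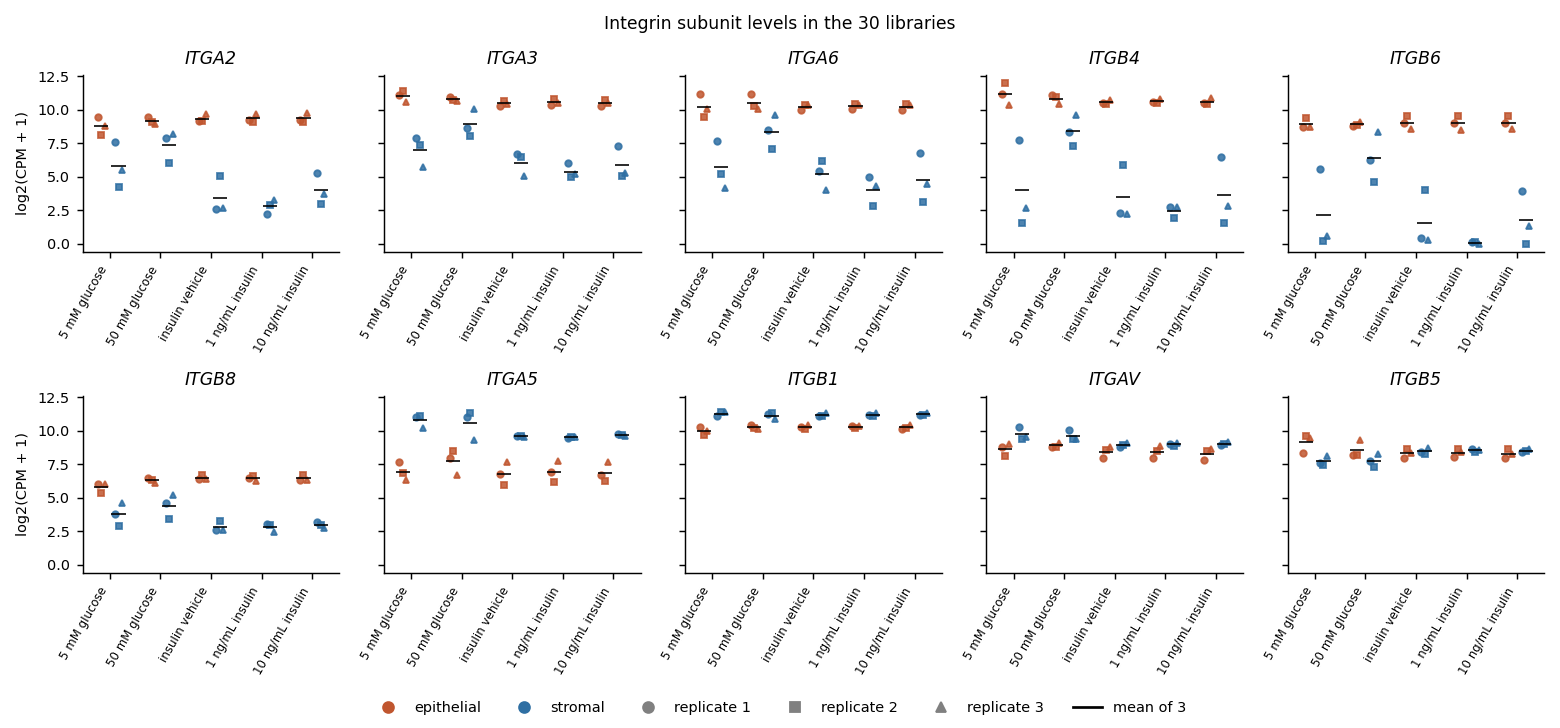
Levels of the 10 integrin subunits in the 30 libraries as log2(CPM + 1), by condition, with epithelial libraries in orange, stromal libraries in blue, 1 marker shape per replicate and a line at the mean of 3. The orange points of ITGB4, ITGB6, ITGA3 and ITGB8 lie above all blue points, those of ITGA5 and ITGB1 lie below, and ITGB5 runs together.

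Across all 30 libraries, 4 of the 10 subunits had every epithelial library above every stromal library, as had 6.74% of the 12735 protein-coding genes compared, and 2 had every stromal library above every epithelial library, as had 7.89%. In an alternative chosen after seeing the data, without the 6 stromal libraries that carried epithelial markers, ITGA2 and ITGA6 joined the first group, which then held 6 subunits against 16.1% of the genes, and the second kept 2 against 11.0%. The overlap of ITGA2 and ITGA6 had rested on stromal replicate 3 at 50 mM glucose, which was among the libraries left out. Their move thus followed from the choice and is no added evidence.

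Within each condition, the cell types were compared with the quasi-likelihood test of edgeR, with p adjusted over all genes tested after Benjamini and Hochberg, and a gene was called at an adjusted p under 0.05 and a log2 fold change beyond 0.1. Positive log2 fold changes mean a higher level in epithelial cells. In the insulin vehicle, 6 subunits were called higher, where 28.2% of the 12876 protein-coding genes tested were, and 3 were called lower, where 27.8% were. In either direction this was 9 subunits against 55.9% of the genes, and the same 9 passed an unadjusted p under 0.05, as did 61.9%. The largest vehicle difference was that of ITGB6 (log2 fold change 7.90, standard error 1.20, adjusted p = 0.00576), followed by ITGB4 (7.29, standard error 1.20, adjusted p = 0.00733) and ITGA2 (6.0, standard error 0.799, adjusted p = 0.00412). ITGA6 (4.99, standard error 0.499, adjusted p = 0.00213), ITGA3 (4.34, standard error 0.385, adjusted p = 0.00168) and ITGB8 (3.79, standard error 0.160, adjusted p = 0.000899) were smaller in size. On the stromal side were ITGA5 (-2.87, standard error 0.381, adjusted p = 0.00409), ITGB1 (-0.98, standard error 0.143, adjusted p = 0.00523) and ITGAV (-0.59, standard error 0.126, adjusted p = 0.0158). ITGB5 was not called (-0.24, standard error 0.193, adjusted p = 0.335) and was higher in epithelial cells in 1 of 3 pairs. The call of ITGAV in the vehicle did not hold without replicate 1 (adjusted p = 0.0701) or replicate 3 (0.0603), and that of ITGB4 did not hold without replicate 1 (0.0511).

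At 1 and 10 ng/mL insulin, the same 9 subunits were called in the same directions, 6 higher and 3 lower. The background was 29.9% higher and 29.5% lower at 1 ng/mL, and 27.3% higher and 27.6% lower at 10 ng/mL. In either direction 59.4% of the genes were called at 1 ng/mL and 54.9% at 10 ng/mL, and at an unadjusted p under 0.05, which 9 subunits passed at each dose, 64.5% and 61.5% did. The difference of ITGA5 was -2.69 at 1 ng/mL (standard error 0.298, adjusted p = 0.00101) and -2.91 at 10 ng/mL (standard error 0.317, adjusted p = 0.00283). For ITGA2 it was 6.66 at the lower dose (standard error 0.262, adjusted p = 5.17e-05) and 5.37 at the higher (standard error 0.561, adjusted p = 0.00256), for ITGA3 5.08 (standard error 0.333) and 4.57 (standard error 0.610), and for ITGA6 6.18 (standard error 0.598) and 5.46 (standard error 0.967). ITGB4 had 8.33 (standard error 0.274) and 7.20 (standard error 1.36), and ITGB8 3.72 (standard error 0.136) and 3.57 (standard error 0.131). ITGB1 lay at -1.02 (standard error 0.132) and -1.08 (standard error 0.131), and ITGAV at -0.68 (standard error 0.170) and -0.85 (standard error 0.139). At 1 ng/mL, ITGAV was not called without replicate 1, and at 10 ng/mL ITGA6, ITGB4 and ITGB6 were not called without replicate 3. ITGB5 was not called at either dose, with -0.28 (adjusted p = 0.258) and -0.30 (adjusted p = 0.175). ITGB6 gave 7.53 at 10 ng/mL (standard error 1.41, adjusted p = 0.0112) and 12.83 at 1 ng/mL (standard error 0.273, adjusted p = 2.42e-05). At 1 ng/mL, ITGB6 passed the filter on low counts through the epithelial libraries, so its call shows no more than the few stromal reads. The value at 1 ng/mL depends on the prior count of the fit, since the 3 stromal libraries held 2 ITGB6 reads together against 17098 in the epithelial libraries. The ratio of the pooled CPM was 9493 there, with a 95% counting interval from 2628 to 78393, and it was 98.4 (84.6 to 115) in the vehicle and 90.5 (78.9 to 104) at 10 ng/mL. These intervals cover counting error only, and single stromal libraries carried the pooled values. The log2 CPM ratios of replicates 1, 2 and 3 were 10.48, 5.66 and 10.72 in the vehicle, and those of replicates 1 and 3 at 10 ng/mL were 5.15 and 8.05, with replicate 2 at 0 in stromal cells.

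In the glucose experiment, fewer genes overall were called between the cell types. At 5 mM, 6 subunits were called higher, against 10.8% of the 13286 protein-coding genes tested, and 2 lower, against 10.7%. ITGB6 (log2 fold change 8.33, standard error 2.23, adjusted p = 0.0465) and ITGB4 (7.42, standard error 1.84, adjusted p = 0.0369) again differed most, but with wide errors, and both calls were lost without replicate 2 (adjusted p = 0.125 and 0.0665). ITGA6 (4.36, standard error 0.602, adjusted p = 0.00753), ITGA3 (3.81, standard error 0.488, adjusted p = 0.00671), ITGA2 (2.83, standard error 0.539, adjusted p = 0.0168) and ITGB8 (1.92, standard error 0.388, adjusted p = 0.0198) were called higher. ITGA5 (-4.08, standard error 0.403, adjusted p = 0.00543) and ITGB1 (-1.50, standard error 0.373, adjusted p = 0.0371) were called lower, the latter not without replicate 2 (0.0554) or replicate 3 (0.203). The replicate numbers did not clearly pair the cell types at 5 mM, and without the replicate block ITGA2, ITGB4 and ITGB6 were not called (adjusted p = 0.0986, 0.0781 and 0.106), while ITGAV was (0.0379). ITGAV (-1.33, standard error 0.370, adjusted p = 0.0524) and ITGB5 (1.21, standard error 0.422, adjusted p = 0.102) were not called. In 3 of 3 pairs ITGAV was lower in epithelial cells, as were 21.4% of the genes, and ITGB5 was higher, as were 36.8%. All 10 subunits passed an unadjusted p under 0.05, where 32.9% of the genes did.

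At 50 mM, 3 subunits were called. ITGB8 was higher in epithelial cells (log2 fold change 1.81, standard error 0.415, adjusted p = 0.0421), where 6.57% of the 13235 protein-coding genes tested were higher, and ITGA5 (-2.97, standard error 0.229, adjusted p = 0.00215) and ITGB1 (-1.04, standard error 0.200, adjusted p = 0.0285) were lower, where 11.0% were. The other epithelial subunits had log2 fold changes of 1.60 (ITGA2, standard error 0.473), 1.71 (ITGA3, standard error 0.428), 2.03 (ITGA6, standard error 0.579), 2.26 (ITGB4, standard error 0.586) and 2.36 (ITGB6, standard error 0.716), with adjusted p from 0.0502 to 0.077. ITGAV stood at -0.84 (standard error 0.289, adjusted p = 0.101) and ITGB5 at 0.67 (standard error 0.218, adjusted p = 0.0903). All 10 subunits had an unadjusted p under 0.05, where 36.9% of the genes did. In 3 of 3 pairs, 7 subunits were higher in epithelial cells, as were 41.1% of the genes, and 3 were lower, as were 21.9%. But the number called ran from 0 without replicate 1 or without the replicate block to 8 without replicate 3, and was 9 with DESeq2. Over all protein-coding genes, 0 of 13351 were called without replicate 1 and 1052 of 13235 without the block. Without replicate 3 it was 3785 of 13338, and with DESeq2 3497 of 14446. All 3 stromal libraries at 50 mM carried epithelial markers, and 29 of the 30 epithelial markers were also higher at an unadjusted p under 0.05, and the list had a median of 2.21 on the log2 scale, where it was 7.30 at 5 mM. Their part in the smaller cell type difference of the subunits was not tested.

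**Figure D2:**
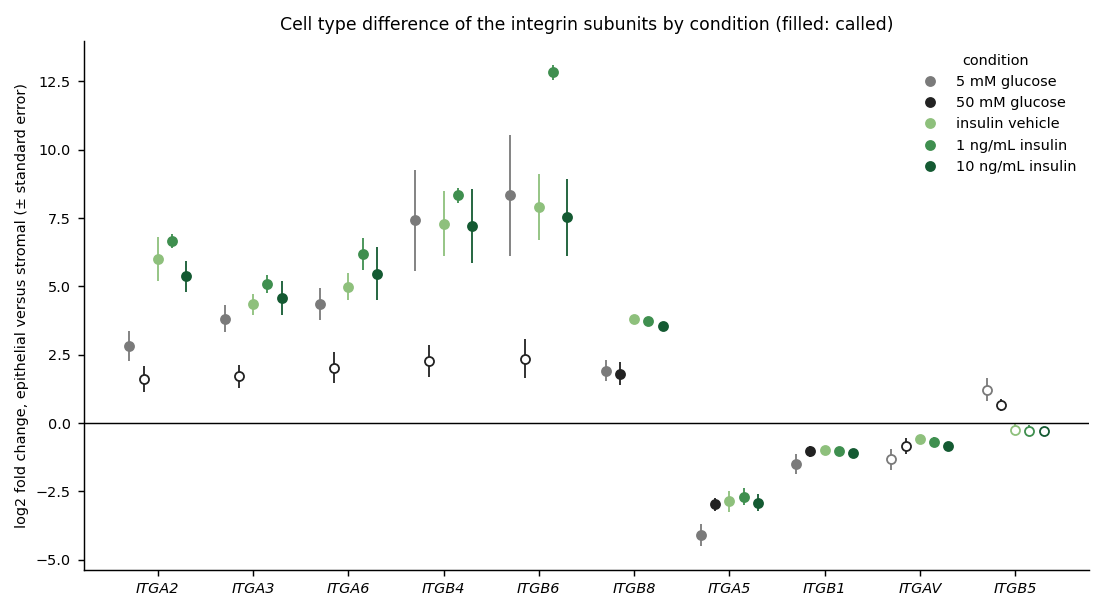
Log2 fold change of each subunit between epithelial and stromal cells in the 5 conditions, with standard errors, where filled points were called and open points were not. The 6 epithelial subunits lie between 1.60 and 12.83 and are lowest at 50 mM glucose, ITGA5, ITGB1 and ITGAV lie below 0, and ITGB5 changes sign between the experiments.

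The epithelial subunits were next read in the 9 stromal libraries with few epithelial markers. There ITGB4 stood at 0.0756% to 0.386% of its mean in epithelial cells of the same condition, and ITGB6 at 0% to 0.266%. The epithelial marker median in the same libraries was 0% to 0.407%, so both subunits were under 1% wherever the markers were. ITGB8 stood at 5.23% to 41.7%, ITGA3 at 2.02% to 7.67%, ITGA2 at 0.531% to 9.67% and ITGA6 at 0.469% to 3.48%, which in each case was above the highest marker median of the 9 libraries. Single markers also stood above that median. MARVELD2, for example, had at least 14.2 CPM in every stromal library, against 51.7 to 103 CPM in the epithelial libraries. ITGB8 at 41.7% and ITGA2 at 9.67% were both from replicate 3 at 5 mM glucose, with 23.3 and 45.3 CPM. In the other direction, the epithelial libraries held ITGA5 at 4.26% to 28.9%, ITGB1 at 33.6% to 61.7% and ITGAV at 31.6% to 90.0% of the stromal mean of the same condition. The median stromal marker in these libraries reached at most 17.3%, which is under the lowest value of ITGB1 and ITGAV and inside the range of ITGA5.

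**Figure D3:**
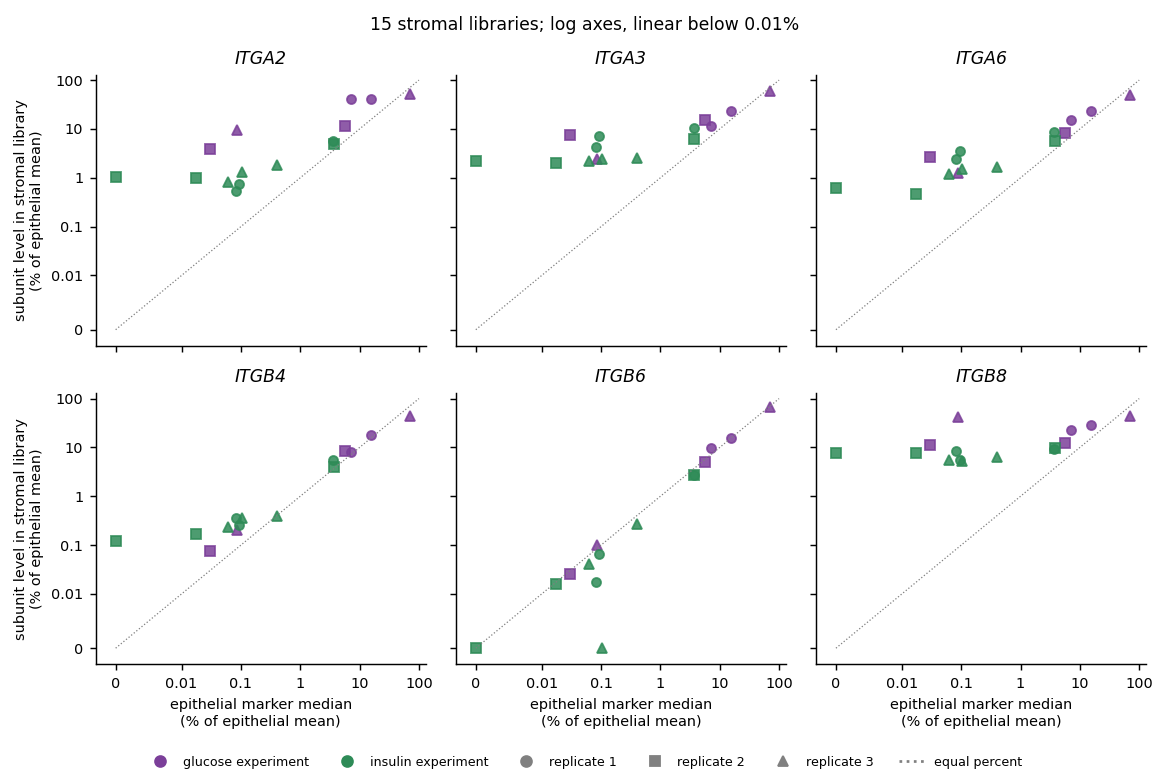
Level of the 6 epithelial subunits in each of the 15 stromal libraries against the median of the 30 epithelial markers in the same library, both as percent of the mean in epithelial cells of the same condition, on log axes that are linear below 0.01%, with a dotted line where both are equal. ITGB6 stays near the line except at 1 ng/mL insulin, where replicate 1 (0.0173%) and replicate 3 (0%) lie below it, ITGB4 leaves it below about 0.1%, and ITGA2, ITGA3, ITGA6 and ITGB8 lie above it in the libraries with few markers.

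High glucose was compared with 5 mM first in epithelial cells, where no subunit was called. With edgeR, 0 of the 10 subunits and 0% of the 13055 protein-coding genes tested were called, and DESeq2 called 0 subunits. At an unadjusted p under 0.05, 1 subunit passed, where 1.54% of the genes did. It was ITGA5, with 200, 113 and 77.8 CPM in replicates 1, 2 and 3 at 5 mM and 252, 364 and 104 CPM at 50 mM. The level was higher at 50 mM in each pair, and the groups overlapped. The log2 fold change was 0.81 (standard error 0.320, unadjusted p = 0.0464, adjusted p = 0.804 from edgeR). Without replicate 2 it was 0.41 and called (adjusted p = 0.0274), where 218 of 13218 protein-coding genes were called. The median stromal marker was also higher at 50 mM in each pair, as a percent of the stromal level. It went from 12.0% to 17.3% in replicate 1, from 3.29% to 13.8% in replicate 2 and from 5.90% to 10.9% in replicate 3. The part of these markers in the difference was not tested. ITGB8, ITGB1 and ITGAV were also higher in 3 of 3 pairs, as were 12.8% of the genes, and ITGB5 was lower in 3 of 3, as were 16.8%. Over the 10 subunits the log2 fold changes ran from -0.57 (ITGB5) to 0.81 with a median of 0.27, where the median of all genes tested was 0.01.

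In the stromal cells, the subunits that mark the epithelium had higher values at 50 mM, with 0 called by edgeR, where 0% of the 13035 protein-coding genes tested were. At an unadjusted p under 0.05, 2 of 10 subunits passed, where 4.96% of the genes did. ITGB8 had 12.8, 6.35 and 23.3 CPM at 5 mM and 23.1, 9.62 and 35.3 CPM at 50 mM in replicates 1, 2 and 3. It was higher in each pair by a similar factor, while the groups overlapped (log2 fold change 0.62, standard error 0.145, unadjusted p = 0.0115, adjusted p = 0.696 from edgeR). ITGA2 had 190, 17.8 and 45.3 CPM at 5 mM and 235, 63.7 and 292 CPM at 50 mM, again higher in each pair (1.55, standard error 0.479, unadjusted p = 0.0290, adjusted p = 0.696 from edgeR). ITGB6 had 47.1, 0.126 and 0.488 CPM at 5 mM and 74.3, 23.5 and 316 CPM at 50 mM. ITGB4 had 208, 1.95 and 5.31 CPM at 5 mM and 329, 152 and 785 CPM at 50 mM. In both genes replicate 1 was already high at 5 mM and the other replicates differed strongly between the concentrations, so that the errors were wide (ITGB6 5.27, standard error 2.30, and ITGB4 5.01, standard error 1.85).

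ITGA6 (2.48, standard error 1.06) and ITGA3 (1.76, standard error 0.886) lay in the same direction in the stromal cells. In all, 6 subunits were higher at 50 mM in 3 of 3 pairs, as were 23.4% of the genes, and ITGAV was lower in 3 of 3, as were 10.1%. DESeq2 called ITGA2, ITGB4 and ITGB6, where it called 194 of 13760 protein-coding genes, 192 of them higher. Without replicate 1, edgeR called ITGB4 and ITGB6, where it called 49 of 13123 genes, all higher. The 29 epithelial markers tested in this comparison had a median log2 fold change of 4.43, with 4 at an unadjusted p under 0.05, all higher. Their summed level was 127 to 824 CPM in the 3 libraries at 5 mM, where 0 to 11 markers were at 0, and 1182 to 7151 CPM at 50 mM, where 0 were at 0. The part of these markers in the differences of the subunits was not tested. The stromal subunits showed no call, with ITGA5 at -0.29 (standard error 0.298) and ITGB1 at -0.21 (standard error 0.227). ITGA5 had its lowest stromal value in replicate 3 at both concentrations, with 1181 CPM at 5 mM and 626 CPM at 50 mM, where replicates 1 and 2 had 2061 and 2239 CPM and then 2088 and 2567 CPM.

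**Figure D4:**
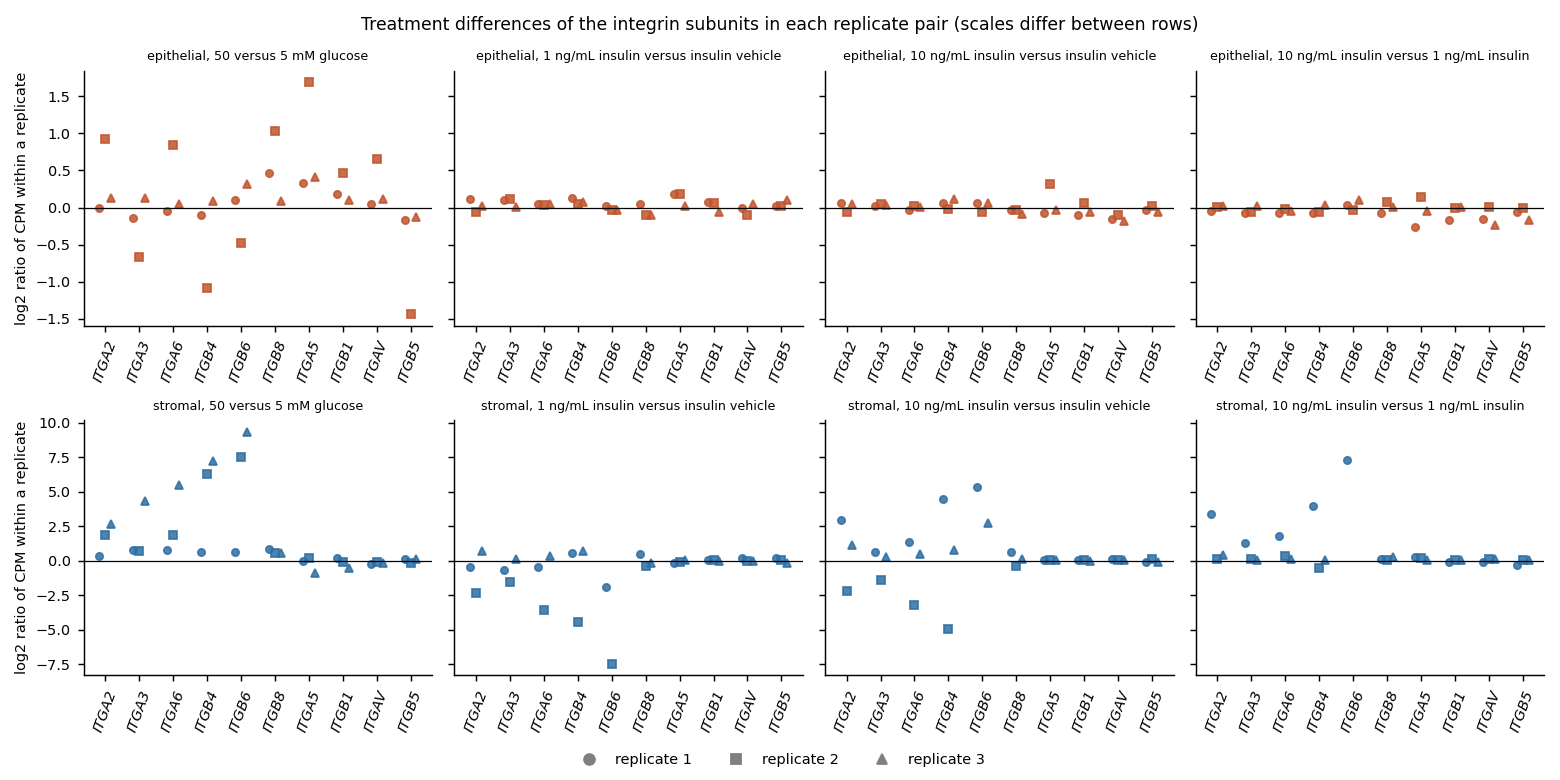
Log2 ratio of CPM between the treatments in each replicate for the 10 subunits, with epithelial cells above and stromal cells below on a wider scale, where ratios with a library at 0 are not drawn. Epithelial insulin ratios lie close to 0, replicate 2 stands out in the epithelial glucose panel, and ITGA2, ITGA3, ITGA6, ITGB4 and ITGB6 spread widely in stromal cells.

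In epithelial cells, the subunits differed little between the insulin doses. None was called at any dose with edgeR or DESeq2, where edgeR called 0% of the 12464 protein-coding genes tested at 1 ng/mL against the vehicle, 0.113% of 12373 (0.0727% higher and 0.0404% lower) at 10 ng/mL against the vehicle and 0% of 12396 between the doses. At an unadjusted p under 0.05, 1 subunit passed in each of the 3 comparisons, where 2.87%, 6.78% and 4.29% of the genes did. ITGA5 had 106, 61.7 and 207 CPM in the vehicle and 121, 69.9 and 210 CPM at 1 ng/mL in replicates 1, 2 and 3 (log2 fold change 0.11, standard error 0.0503, unadjusted p = 0.0376, adjusted p = 1 from edgeR). ITGAV had 248, 376 and 441 CPM in the vehicle, 248, 350 and 456 CPM at 1 ng/mL and 223, 352 and 388 CPM at 10 ng/mL. At 10 ng/mL it was below the vehicle in each pair, as were 12.4% of the genes. Between replicates it differed more than between doses. Its log2 fold change was -0.15 against the vehicle (standard error 0.0395, unadjusted p = 0.000511, adjusted p = 0.177) and -0.13 against 1 ng/mL (standard error 0.0462, unadjusted p = 0.0136, adjusted p = 0.983), both from edgeR. Over 8 alternative settings the adjusted p of the former was between 0.0541 and 1. Stromal markers lay in the same direction between 10 ng/mL and the vehicle, with 8 of the 25 tested lower at an unadjusted p under 0.05, 0 higher and a median log2 fold change of -0.09, and their part in the value of ITGAV was not tested.

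The other epithelial values of insulin were small. Over the 10 subunits the log2 fold changes ran from -0.06 to 0.11 at 1 ng/mL and from -0.15 to 0.04 at 10 ng/mL against the vehicle, with standard errors of at most 0.0541, and from -0.13 to 0.03 between the doses. The replicates differed far more. On the log2(CPM + 1) scale, the replicate number held 81.1% (ITGB1) to 99.4% (ITGB6) of a subunit's variation in the epithelial insulin libraries, with a median of 96.9%, and the dose held a median of 1.87%. ITGB6, for example, stayed at 366, 358 and 383 CPM in replicate 3 from the vehicle through 1 to 10 ng/mL and at 753, 737 and 722 CPM in replicate 2. In the epithelial glucose libraries the replicate number held a median of 57.5% and the glucose concentration 17.6%. There ITGB8 was the exception, with 19.5% by replicate and 52.0% by concentration.

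**Figure D5:**
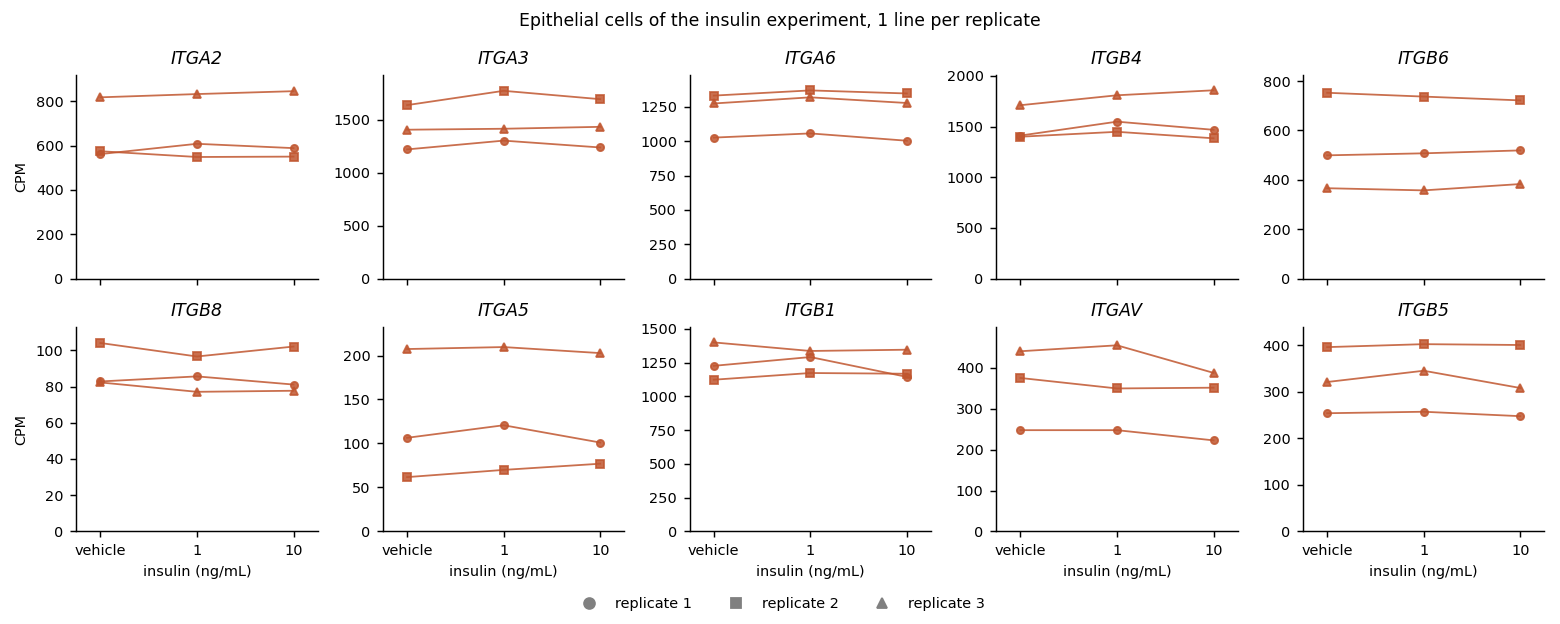
CPM of the 10 subunits in the epithelial cells of the insulin experiment from the vehicle through 1 to 10 ng/mL, with 1 line per replicate and axes that start at 0. The lines run nearly flat and mostly keep their order, while replicates differ, as for ITGB6 with 366, 499 and 753 CPM in the vehicle.

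In stromal cells, 0 of the 9 subunits tested were called at 1 ng/mL insulin against the vehicle by edgeR, where 0% of the 12228 protein-coding genes were, and DESeq2 called 0. ITGB6 was too low to be tested. At an unadjusted p under 0.05, 4 subunits were lower, where 5.03% of the genes passed in either direction. ITGA3 had 100, 88.0 and 31.6 CPM in the vehicle and 62.3, 30.3 and 35.5 CPM at 1 ng/mL in replicates 1, 2 and 3 (log2 fold change -0.70, standard error 0.198, unadjusted p = 0.00377, adjusted p = 0.761 from edgeR). ITGA6 had 42.1, 69.3 and 14.7 CPM and 30.7, 5.85 and 18.8 CPM (-1.10, standard error 0.437, unadjusted p = 0.0260), ITGA2 had 4.90, 32 and 5.31 CPM and 3.52, 6.44 and 8.63 CPM (-0.93, standard error 0.393, unadjusted p = 0.0351), and ITGB4 had 3.94, 58.5 and 3.58 CPM and 5.74, 2.71 and 5.73 CPM (-1.61, standard error 0.681, unadjusted p = 0.0348), each with an adjusted p of 0.917. In all 4 the vehicle library of replicate 2 was high or among the highest, and replicate 3 lay in the other direction. That library carried epithelial markers (3.75%). The 5 epithelial markers that could be tested had a median of -0.29, with 1 lower at an unadjusted p under 0.05. Only markers with enough stromal reads could be tested, so that median does not describe the rest of the list. Over all 30 markers, the median share in replicates 1, 2 and 3 was 0.0937%, 3.75% and 0.0615% in the vehicle. At 1 ng/mL it was 0.0811%, 0.0173% and 0.104%. The part of the markers in these values was not tested. Without replicate 2, ITGA2 and ITGB4 turned to 0.23 and 0.65. Without replicate 3 all 4 subunits were called, where 93 of 12324 protein-coding genes were.

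A like picture, with another library, held between the insulin doses in stromal cells. Against 1 ng/mL, 5 of the 9 subunits tested were higher at 10 ng/mL at an unadjusted p under 0.05, where 3.68% of the 12281 protein-coding genes passed, and 0 were called by edgeR or DESeq2, where edgeR called 0.0244% of the genes. At 10 ng/mL, replicates 1, 2 and 3 had 107, 7.54 and 20.4 CPM of ITGA6 (log2 fold change 0.96, standard error 0.245, unadjusted p = 0.00248, adjusted p = 0.624 from edgeR) and 88.2, 1.93 and 6.05 CPM of ITGB4 (2.06, standard error 0.601, unadjusted p = 0.00572, adjusted p = 0.895 from edgeR). ITGA3 had 153, 32.8 and 37.4 CPM (0.55, standard error 0.177, unadjusted p = 0.00981) and ITGA2 had 37.3, 6.93 and 11.8 CPM (1.33, standard error 0.435, unadjusted p = 0.0109), both with an adjusted p of 1. In these 4, replicate 1 at 10 ng/mL was far above the other stromal libraries of the doses, and it carried epithelial markers (3.63%). Of the 7 epithelial markers that could be tested, 1 was called higher and 4 passed an unadjusted p under 0.05, all higher, with a median of 0.58. These again were only markers with enough stromal reads. Over all 30 markers, the median share in replicates 1, 2 and 3 was 0.0811%, 0.0173% and 0.104% at 1 ng/mL. At 10 ng/mL it was 3.63%, 0% and 0.407%. The part of the markers in these values was not tested. Without replicate 1 the value of ITGB4 was -0.091. Without replicate 3 the 4 subunits were called, where 64 of 12310 protein-coding genes were. ITGA5, the last of the 5, had 711, 727 and 739 CPM at 1 ng/mL and 843, 816 and 773 CPM at 10 ng/mL. It was higher in 3 of 3 pairs, as were 15.5% of the genes. Its groups did not overlap, but the share of all genes without overlap in this comparison was not counted. Its log2 fold change was 0.14 (standard error 0.0514, unadjusted p = 0.0208, adjusted p = 1 from edgeR), and the dose held 65.6% of its variation in the stromal insulin libraries.

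Between 10 ng/mL and the vehicle, 0 of the 10 subunits were called in stromal cells and 0 passed an unadjusted p under 0.05, where 0% and 2.73% of the 12290 protein-coding genes did, and DESeq2 called 0. The smallest p was that of ITGAV, with 444, 488 and 550 CPM in the vehicle and 487, 510 and 579 CPM at 10 ng/mL (log2 fold change 0.10, standard error 0.0470, unadjusted p = 0.0723, adjusted p = 0.999 from edgeR). It was higher in 3 of 3 pairs, as were 11.2% of the genes. ITGB6 at 0.52 had a standard error of 1.89. Without replicate 2, whose vehicle library carried epithelial markers, ITGA2, ITGA3, ITGA6, ITGB4 and ITGB6 were called higher, where 74 of 12409 protein-coding genes were. The highest values left in that fit were those of replicate 1 at 10 ng/mL, which itself carried epithelial markers (3.63%).

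Whether the cell types answered differently was tested as the epithelial effect minus the stromal effect, in fits of 12 libraries. ITGB6 was called for 1 ng/mL against the vehicle (6.26 on the log2 scale, standard error 0.431, adjusted p = 1.23e-06 from edgeR), where 0.659% of the 13357 protein-coding genes were called. It was also called for 10 against 1 ng/mL (-6.10, standard error 0.502, adjusted p = 1.62e-05 from edgeR), where 0.728% of 13323 were. Its epithelial levels were 499, 753 and 366 CPM in replicates 1, 2 and 3 of the vehicle, 508, 737 and 358 CPM at 1 ng/mL and 519, 722 and 383 CPM at 10 ng/mL. Its stromal levels were 0.350, 14.9 and 0.217 CPM in the vehicle, 0.0926, 0.0848 and 0 CPM at 1 ng/mL and 14.6, 0 and 1.44 CPM at 10 ng/mL. The stromal groups thus differed through replicate 2 of the vehicle and replicates 1 and 3 at 10 ng/mL, and with 2 reads at 1 ng/mL the sizes depend on the prior count. ITGB6 passed the filter on low counts through the epithelial libraries, since in stromal cells alone it was too low to be tested in the comparisons with 1 ng/mL, so the calls show no more than these few stromal reads. Without replicate 2 the former was 2.33 (adjusted p = 0.734), and without the replicate block both calls were lost (adjusted p = 1.00 in both). In these fits 20 and 22 of the 30 epithelial markers were called in the same direction as ITGB6, and their part in its call was not tested.

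The other subunits were not called for a different answer of the cell types. For 1 ng/mL against the vehicle, ITGA3 (0.78, unadjusted p = 0.00526, adjusted p = 0.293), ITGB4 (1.93, unadjusted p = 0.00913, adjusted p = 0.404), ITGA2 (1.08, unadjusted p = 0.0120, adjusted p = 0.458) and ITGA6 (1.15, unadjusted p = 0.0301, adjusted p = 0.638) passed an unadjusted p under 0.05 in edgeR, as did ITGB6 and 6.69% of the genes. Without replicate 2, ITGA2 and ITGB4 turned to -0.20 and -0.56. For 10 against 1 ng/mL, ITGB4 (-2.33, unadjusted p = 0.000723, adjusted p = 0.0768), ITGA6 (-1.05, unadjusted p = 0.000923, adjusted p = 0.0874), ITGA2 (-1.43, unadjusted p = 0.00320, adjusted p = 0.205), ITGA3 (-0.61, unadjusted p = 0.00789, adjusted p = 0.354) and ITGA5 (-0.21, unadjusted p = 0.0291, adjusted p = 0.609) did, as did ITGB6 and 6.60% of the genes, and ITGB4 turned to 0.046 without replicate 1. For 10 ng/mL against the vehicle only ITGAV did (-0.26, standard error 0.0860, unadjusted p = 0.0143, adjusted p = 1), with a lower epithelial and a higher stromal value, where 4.05% of the genes did and DESeq2 called 0 subunits. For glucose, 0 were called by edgeR, where 0% of the 13851 genes were, and 2 of 10 passed an unadjusted p under 0.05, where 7.65% did. These were ITGB4 (-5.43, standard error 1.74, unadjusted p = 0.0153, adjusted p = 0.631) and ITGB6 (-5.66, standard error 2.18, unadjusted p = 0.0332, adjusted p = 0.649), and DESeq2 called ITGB6. The share of all genes that DESeq2 called for this difference is not reported here.

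The cell type difference was also compared between 5 mM glucose and the insulin vehicle, which held the same glucose concentration in separate experiments. No subunit was called by edgeR, where 0% of the 13659 genes were. ITGB8 had the smallest p, and its stromal level averaged 14.1 CPM at 5 mM (SD 8.56, n = 3) and 6.25 CPM in the vehicle (SD 2.11, n = 3). Its epithelial level also differed, with 55.8 CPM at 5 mM (SD 14.2, n = 3) and 89.7 CPM in the vehicle (SD 12.4, n = 3). Its cell type difference was smaller by 1.87 in the glucose experiment (standard error 0.405, unadjusted p = 0.00213, adjusted p = 0.350 from edgeR). ITGA2 (-3.20, standard error 0.967, unadjusted p = 0.0120), ITGB5 (1.47, standard error 0.465, unadjusted p = 0.0150) and ITGA5 (-1.20, standard error 0.509, unadjusted p = 0.0483) also passed an unadjusted p under 0.05, as did 10.4% of the genes, and DESeq2 called ITGA2 and ITGB8. The share of all genes that DESeq2 called here is not reported, so these 2 calls have no background beside them. Glucose and insulin experiments also differed in library depth, and that cannot be told apart from the rest of the experiment.

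The order of the 10 group means placed all 5 epithelial groups above the 5 stromal groups in ITGA2, ITGA3, ITGA6, ITGB4, ITGB6 and ITGB8, and all 5 stromal groups above in ITGA5, ITGB1 and ITGAV. Stromal cells at 1 ng/mL insulin came last in the 6 epithelial subunits, and stromal cells at 5 mM glucose came first in ITGA5 (1827 ± 566 CPM, SD, n = 3), ITGB1 (2504 ± 313 CPM, SD, n = 3) and ITGAV (889 ± 310 CPM, SD, n = 3). Of the 9 steps between neighbouring groups in each order, 0 to 2 separated groups whose replicates did not overlap. Neither the orders nor these steps were counted over all genes, and the orders join groups of both experiments. In ITGA2 and ITGB5 no neighbours were apart. The read ratio of ITGA6 to ITGB4 within a library, which is not scaled for length and so compares only libraries, was 0.169 to 1.06 in epithelial cells (median 0.745) and 0.849 to 18.3 in stromal cells (median 3.23). Epithelial replicate 2 at 5 mM glucose gave the 0.169, with ITGB4 at 4151 and ITGA6 at 702 CPM, and replicates 1 and 3 of that group gave 1.02 and 0.816.

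Genes with the most similar pattern were ranked by Pearson's r over the 15 libraries of the cell type with the higher level, after centring log2(CPM + 1) on each experiment, as a description and with no p. The 15 libraries are 3 replicate numbers under 5 conditions and so are not independent. Among 8770 genes in epithelial cells, ADAMTSL5 (r = 0.977), AP1M2 (0.976), an epithelial marker, and PSMD8 (0.975) were closest to ITGA6, and LMNA (0.977), MYO1C (0.976) and KLC2 (0.973) were closest to ITGB4. ITGA2 came closest to CHP1 (0.972), CYBRD1 (0.969) and FGF2 (0.964), and ITGA3 to PLEKHM1 (0.946), EIF2B2 (0.942) and THBS1 (0.940), an integrin ligand. ITGB6 was most like ICAM1 (0.936) and PTGR1 (0.923), ITGB8 most like SH3YL1 (0.956), ODF2L (0.949) and PGRMC2 (0.944), and ITGB5 most like FBH1 (0.940), TACC2 (0.940) and BSDC1 (0.926). The third gene for ITGB6 has no symbol in the files (r = 0.916). Among 8473 genes in stromal cells, PDGFC (0.956) and LHFPL6 (0.953) were among the closest to ITGA5, CACNA2D1 (0.954), VCAN (0.942) and SIK2 (0.913) to ITGB1, and PLBD1 (0.954), NFATC1 (0.953) and RGS16 (0.948) to ITGAV.

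Other genes of integrin adhesion were read from fixed lists, each described by its counts in the insulin vehicle, where 28.2% of all protein-coding genes were called higher in epithelial cells and 27.8% lower. Of 7 hemidesmosome partners, 6 were called higher in epithelial cells and 0 lower, among them LAMA3 (log2 fold change 6.52, standard error 0.996, adjusted p = 0.00591) and LAMB3 (7.51, standard error 1.33, adjusted p = 0.00905), chains of the laminin that ITGA6 with ITGB4 binds. The median of the list was 4.60, where that of all genes tested was 0. Of 19 matrix ligands, 2 were called higher and 15 lower, with a median of -3.08. THBS1, a thrombospondin, was lower (-1.31, standard error 0.249, adjusted p = 0.0110), while FN1, the fibronectin that ITGA5 with ITGB1 binds, was higher in epithelial cells (1.09, standard error 0.199, adjusted p = 0.00987), the opposite side to its receptor. Of 24 activators and focal adhesion adaptors, 5 were higher and 8 lower around a median of -0.15, with the actin crosslinker ACTN4 at 1.12 (standard error 0.123, adjusted p = 0.00259) and vinculin (VCL) at -1.15 (standard error 0.145, adjusted p = 0.00356). Of 8 latent TGF-beta genes, 1 was higher (LTBP3, 0.74, standard error 0.222, adjusted p = 0.0434) and 5 were lower, with a median of -0.70 and LTBP2 at -1.97 (standard error 0.120, adjusted p = 0.000978).

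Of 16 other integrin subunits listed, 12 were matched and 10 were tested in the vehicle, with 2 called higher and 6 lower in epithelial cells and a median of -1.36, against the same 28.2% and 27.8% of all genes. ITGA1, a collagen receptor chain, had 1707 to 4007 CPM in stromal and 73.1 to 476 CPM in epithelial cells (log2 fold change -3.69, standard error 0.429, adjusted p = 0.00298), the opposite side to ITGA2. ITGB3, which pairs with ITGAV, had 254 to 916 CPM in stromal and 221 to 367 CPM in epithelial cells (-1.55, standard error 0.127, adjusted p = 0.00147). The leukocyte chain ITGB2 was at most 0.750 CPM in any library and ITGA4 at most 1.52 CPM. At 5 mM glucose the counts higher and lower in epithelial cells were 2 and 4 of 10 for the other integrins, 4 and 0 of 7 for the hemidesmosome partners, 1 and 12 of 19 for the ligands, 3 and 4 of 24 for the adaptors and 0 and 3 of 8 for the latent TGF-beta genes, where 10.8% and 10.7% of all genes were. In the 4 treatment comparisons of epithelial cells, 0 genes of these 5 lists were called with edgeR. In epithelial cells at 10 ng/mL, 7 of 17 matrix ligands were lower than in the vehicle at an unadjusted p under 0.05 and 0 were higher, where 6.78% of all genes passed in either direction, with a median of -0.10 over the list and 0 over all genes tested. In the same comparison 8 of 25 stromal markers were lower and 0 higher, and their part in the values of the ligands was not tested.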

How the data were processed

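RNA of 30 libraries (stranded kit, 75 bp single-end reads) was read with the authors' pipeline of FastQC, Cutadapt, fastq_quality_filter, Rsubread against the Ensembl release 96 cow genome, SAMtools and featureCounts. The authors deposited the uniquely mapped reads as counts per gene, not normalized. The strand setting of the counting is not given in the sources used here, so reads of a subunit and of an antisense gene cannot be told apart. The authors' DESeq2 tables also hold fold changes and p-values, which were not used. Only their gene names and types were. Here, edgeR (4.0.16, R 4.3.3) fitted all genes of the libraries compared with TMM scaling, filterByExpr and the replicate number as a block, after the paired design in the study's methods. Cell type fits used 6 libraries and tests of a difference of effects 12. The fitting code was tested on simulated data. Alternatives were DESeq2 (1.42.0) and those named in the closing section. Background percentages count protein-coding genes. The subunits, lists and markers were chosen with earlier results of these data known.

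Same-numbered libraries deviated together in all 8 treatment comparisons, where the lowest correlation of a pair's deviations from the group means was 0.208. Between cell types every pair passed 0.1 in 3 of 5 conditions, the exceptions being 5 mM glucose (lowest 0.0331) and 10 ng/mL insulin (lowest 0.0812). In every pair of libraries of a group, at least 33.8% of the genes differed beyond counting noise, so none was counted as a duplicate. All 10 subunits are named in each cell type comparison. In the other comparisons, those with an unadjusted p under 0.05 are given in full, or the smallest p where none passed, and of each list the 2 called genes with the highest mean CPM. Likeness used genes with a mean of at least 10 CPM. Gene lengths, coordinates and sequences were not used here. Of the genes these rules select, some are not reported here.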

Additional observations from a re-analysis of the deposited data

Results flagged for a closer look

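ITGB6 passed the threshold in 2 tests of a difference of effects between the cell types with the quasi-likelihood test of edgeR, but it entered these fits through the epithelial libraries and was too low to be tested in stromal cells alone at 1 ng/mL. The epithelial minus stromal effect of 1 ng/mL insulin against the vehicle was 6.26 on the log2 scale (adjusted p = 1.23e-06), and that of 10 against 1 ng/mL was -6.10 (adjusted p = 1.62e-05). The epithelial levels were 366 to 753 CPM in the vehicle, 358 to 737 CPM at 1 ng/mL and 383 to 722 CPM at 10 ng/mL. In stromal cells the pooled ITGB6 reads of 3 libraries were 171, 2 and 208 in the same order. The 2 stromal libraries that held most of them, replicate 2 of the vehicle (14.9 CPM) and replicate 1 at 10 ng/mL (14.6 CPM), were those with a median epithelial marker of 3.75% and 3.63% of the epithelial level. Without replicate 2 the former value was 2.33 (adjusted p = 0.734 from edgeR), and without the replicate block neither was called (adjusted p = 1.00 in both).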

How the results depend on the processing

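The 18 comparisons were fitted again under each alternative, and 114 counts of called subunits stayed within 1.5 times the main count while 26 did not. For single subunits, 563 values kept their direction and their side of the threshold, 60 were newly called, 25 were no longer called and 6 reversed. Fitting the insulin experiment or the glucose experiment as a whole, and the size factors of DESeq2 in edgeR, moved none of the counts.

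Without the replicate block, the cell type count at 50 mM glucose went from 3 to 0, and the count for a different answer of the cell types went from 1 to 0 for 1 ng/mL insulin against the vehicle and from 1 to 0 for 10 against 1 ng/mL. Over all protein-coding genes, the count at 50 mM went from 2328 to 1052 of 13235. The pairing changed no other count of subunits by over 1.5 times. With every gene that had at least 1 count, 5 subunits were called in stromal cells at 1 ng/mL against the vehicle, 5 between the doses, 8 between the cell types at 50 mM, and 5 for each of the same 2 differences of effects. In the first 3 of these, 132 of 15301, 138 of 15343 and 3070 of 15659 protein-coding genes were called. For the 2 differences of effects, the count over all genes is not reported here. With DESeq2, 3 were called in stromal cells for glucose, 9 between the cell types at 50 mM, 1 for the glucose difference of effects and 2 for the cell type difference of 5 mM glucose minus vehicle. In the first 2 of these, 194 of 13760 and 3497 of 14446 protein-coding genes were called. For the other 2, the count over all genes is not reported here. The cause of these changes was not tested.

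With 1 replicate left out at a time, the counts ran from 0 to 1 in epithelial cells for glucose, from 0 to 2 in stromal cells for glucose, from 0 to 4 at 1 ng/mL against the vehicle and between the doses, and from 0 to 5 at 10 ng/mL against the vehicle. In the same fits, 0 to 218, 0 to 49, 4 to 93, 23 to 64 and 0 to 75 protein-coding genes were called, of 12271 to 13218 tested. Between cell types the counts of subunits ran from 5 to 8 at 5 mM, from 0 to 8 at 50 mM, from 7 to 9 in the vehicle, from 8 to 10 at 1 ng/mL and from 6 to 9 at 10 ng/mL. Of 13323 to 13469 genes tested, 2190 to 3268 were called at 5 mM and 0 to 3785 at 50 mM. For the insulin conditions, the shares of all genes with 1 replicate left out are not reported here. With all replicates they were 55.9% in the vehicle, 59.4% at 1 ng/mL and 54.9% at 10 ng/mL. For differences of effects the counts of subunits ran from 0 to 2 (glucose), 0 to 3 (1 ng/mL against the vehicle), 0 to 4 (10 ng/mL against the vehicle), 1 to 3 (between the doses) and stayed at 0 for 5 mM glucose minus vehicle. With all replicates, 0%, 0.659%, 0%, 0.728% and 0% of all genes were called, in the same order. The shares with 1 replicate left out are not reported here. Values that reversed came from leaving out 1 replicate. In stromal cells at 1 ng/mL against the vehicle, ITGA2 ran from -1.72 without replicate 3 to 0.23 without replicate 2, and ITGB4 from -2.52 to 0.65. The matching differences of effects ran from 1.80 to -0.20 for ITGA2 and from 2.70 to -0.56 for ITGB4. Between the doses, ITGB4 ran from 2.96 without replicate 3 to -0.091 without replicate 1 in stromal cells, and from -3.17 to 0.046 for the difference of effects.

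Fits with 1 replicate left out keep 2 libraries a group, so their errors rest on few degrees of freedom. Depth limits ITGB6 in stromal cells, which could not be tested alone at 1 ng/mL. The share of each beta subunit per library was not run, since gene lengths were not used here.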
